A study of Mus musculus with 4 samples.

Results

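The genes described here encode the constitutive proteasome, the enzyme complex that degrades ubiquitin-tagged proteins in every cell. They were chosen by symbol: every gene of the count tables named Psma, Psmb, Psmc, Psmd or Psme with a number, except the 3 immunoproteasome genes Psmb8, Psmb9 and Psmb10. The choice used no measured value and gave 41 genes of 55536. There are 16 genes of the 20S core (8 of the alpha ring and 8 of the beta ring) and 20 of the 19S cap (6 ATPases, 3 other subunits of its base, 8 of its lid and 3 assembly chaperones). A further 4 genes encode or copy the PA28 activator and 1 encodes the PA200 activator.

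The samples are primary ear fibroblasts of C57BL/6 mice, studied in 2 states of AF357425. This small nucleolar RNA of the C/D box class is the mouse counterpart of human SNORD113-6. All cells received KN93, an inhibitor of calmodulin-dependent kinase, for 48 h and were then transfected for 24 h. The states are titled AF357425-High and AF357425-Low. The sample characteristics name overexpression for High and inhibition for Low, whereas the protocol text describes gapmers (antisense DNA that directs RNase H to its target) against AF357425 or a scrambled control, so what was transfected in each state is uncertain. Each state gave 1 library of whole-cell RNA and 1 library of RNA recovered with an antibody against fibrillarin, the methyltransferase that C/D box RNAs guide to their targets, after ribosomal RNA depletion. The comparisons ask how proteasome transcripts differ between the states, in the cells and among RNA recovered with fibrillarin. With 1 library in each of the 4 groups there is no replicate check and no test between groups, and every interval below is a 95% interval for counting error only. The sources used here do not say whether the libraries of a state share a culture.

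The 26S proteasome is a barrel, the 20S core, with a 19S cap at its ends. The outer alpha rings of the core form a gate, and the inner beta rings carry the catalytic sites. The cap binds ubiquitin chains, removes them and unfolds the substrate. PA28 and PA200 are alternative caps that open the gate without ubiquitin or ATP. PA28 made of Psme1 and Psme2 products is best known as an interferon-inducible activator that works with the immunoproteasome in supplying peptides to MHC class I.

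Reads assigned to genes numbered between 21693030 and 27832061 per library. AF357425 itself is listed at 0 reads in all 4 libraries, so these counts do not check the labels of the states. Mitochondrial ribosomal RNA took 63.4% of assigned reads in the High pulldown and 59.8% in the Low pulldown. In the whole-cell libraries of High and Low it took 0.0926% and 0.0583%. Of 10 fibroblast markers, 9 reached 1 CPM (reads of a gene per 1000000 assigned reads) in both whole-cell libraries, with summed levels of 10448 CPM in High and 11937 CPM in Low. Chondrocyte markers summed to 262 and 185 CPM, with Matn1 at 0, and macrophage markers to 8.11 and 7.79 CPM, with Adgre1 at 0. Keratinocyte, endothelial, muscle, lymphocyte and mast cell lists each summed to at most 8.16 CPM. Among them only Tek (6.48 and 6.36 CPM), Trp63 (3.53 and 3.09) and Acta1 (1.54 and 1.80) reached 1 CPM in both whole-cell libraries. Krt14, Cd3e, Ms4a1, Nkg7, Myod1, Myog, Ckm, Cpa3, Fcer1a and Mcpt4 had no read in whole-cell RNA. The part of these differences in the results below was not tested.

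Proteasome transcripts made up 0.334% of assigned reads in whole-cell RNA of High and 0.322% in Low, and 0.0822% and 0.0811% in the pulldowns. Of the 41 genes, 38 had a mean of at least 1 CPM in every comparison and are called measured. Their reads ran from 55 to 5142 in whole-cell RNA of High (median 1861.5), from 33 to 5475 in Low (median 1783), from 58 to 2137 in the High pulldown (median 420.5) and from 54 to 2128 in the Low pulldown (median 518.5). The pulldowns therefore measured most of these genes with a smaller number of reads than the whole-cell libraries did. Levels of different genes are not ranked here, since transcript lengths were not used.

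**Figure D1:**
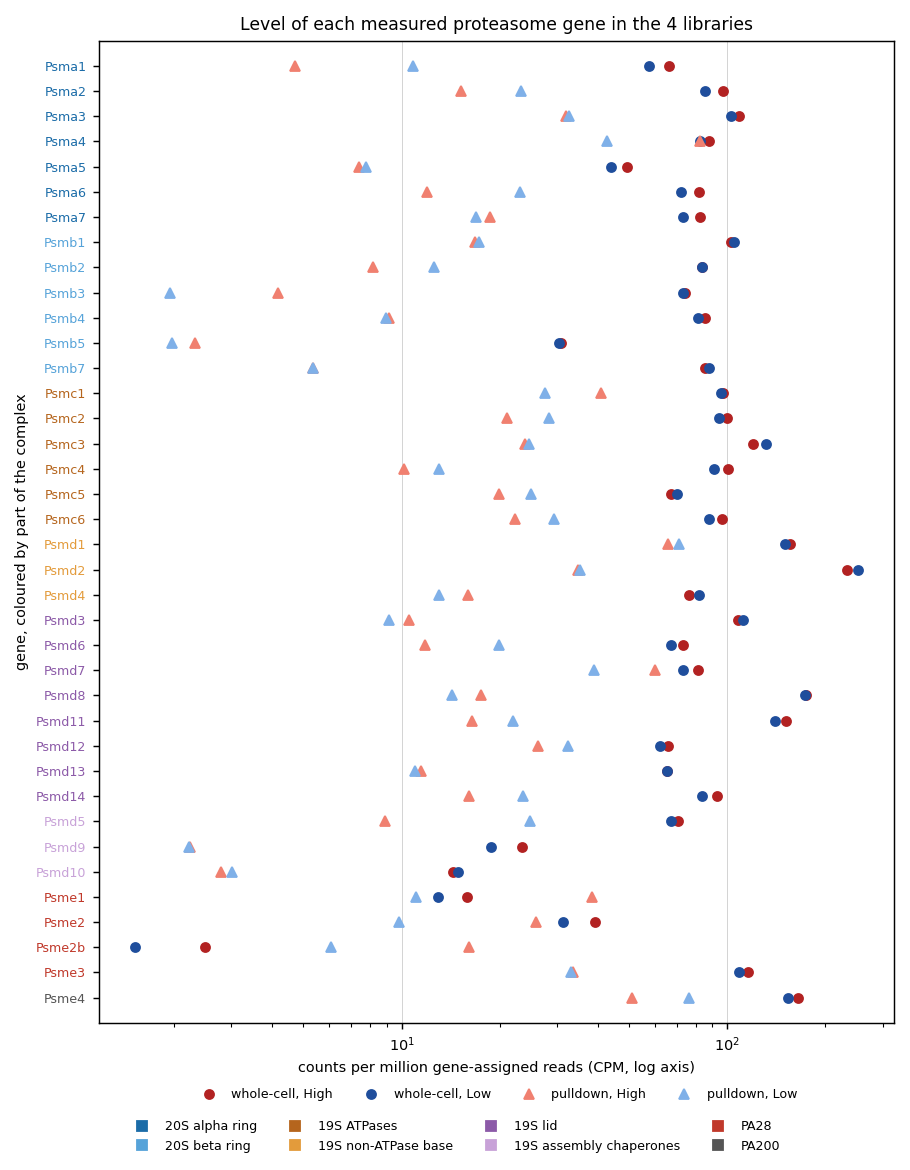
Level of each of the 38 measured proteasome genes in CPM (log axis); circles are whole-cell libraries, triangles are pulldown libraries, red is High and blue is Low, and gene names are coloured by part of the complex. The circles of a gene lie close together, the triangles lie to their left for most genes, and Psme1, Psme2 and Psme2b have a High pulldown triangle well to the right of the Low one.

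The 3 unmeasured genes belong to the core. Psma8, a testis form of an alpha subunit, had 3 reads in whole-cell RNA of High and none elsewhere. Psmb11, the thymus-specific catalytic subunit, had 1 read in whole-cell RNA of Low and 11 in the Low pulldown. Psmb6, which carries the caspase-like site of the constitutive core, is listed at 0 reads in 3 libraries and at 1 in the Low pulldown. Psmb6 lies at chr11:70525324-70527858 (GRCm38.p6). Within 300 kb on either side, 27 of 30 other protein-coding genes (90%) also had under 10 reads in every library, whereas around the 38 measured members this share ran from 0% to 57.1% with a median of 19.4%. Genes in that stretch included the broadly expressed Pelp1, Arrb2 and Slc25a11 at 0 in all 4 libraries, and Pfn1, which encodes the actin-binding protein profilin, with 40, 21, 59 and 72 reads. The window was chosen after these values were seen, and the 0 of Psmb6 is therefore given only as a listed value. Around the immunoproteasome genes Psmb8 and Psmb9, both listed at 0, all 32 and all 33 coding neighbours were under 10 reads, among them Brd2 at 0. Annotated pseudogenes Psmb5-ps, Psmb6-ps, Psmb6-ps2 and Psmb7-ps2 had no reads.

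In whole-cell RNA the states differed little. Ratios are given as log2 of High over Low after TMM scaling, in which 1 unit is 2-fold and positive values mean higher in High. None of the 38 members lay wholly beyond 2-fold in either direction, as did 0.111% of all 13519 measured genes upward and 0.133% downward. The interval lay above 0 for 6 members and below 0 for 7, against 18.0% and 20.5% of all genes. The median of the members was 0.02, and that of all genes -0.01. The ratios of the 33 measured core and cap genes had an SD across genes of 0.103, against 0.333 for all measured genes, a group that includes many genes with smaller counts. In bulk RNA, fewer cells of a type and less RNA per cell cannot be told apart.

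After TMM scaling the rings of the core leaned in different directions by small amounts. All 7 measured alpha ring genes were positive, from 0.02 for Psma3 to 0.14 (0.03 to 0.25) for Psma1, and 4 intervals lay above 0 (Psma1, Psma2, Psma6 and Psma7). This direction was the same under library totals, DESeq2 size factors and totals without the most abundant genes. These raise every whole-cell ratio by 0.065, 0.025 and 0.035, so positive ratios could not turn negative and the agreement is no check. Of the 6 measured beta ring genes, 5 were negative, from -0.11 (-0.21 to -0.02) for Psmb7 to -0.04 for Psmb3. Psmb4 was at 0.00. With TMM, 2 beta ring intervals lay below 0 (Psmb1 and Psmb7), and under each other scaling none did. Under library totals only 3 beta ring genes were negative and the median of the ring was 0.007. Psmb7 carries the trypsin-like site and Psmb5 the chymotrypsin-like site. Psmb5 had 680 reads in High and 660 in Low, a ratio of -0.05 (-0.20 to 0.11). The median of the alpha ring exceeded that of the beta ring by 0.168, a gap that scaling cannot move.

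In the cap, the ATPases, which unfold substrates, had a median of -0.01 and ran from -0.19 (-0.27 to -0.11) for Psmc3 to 0.08 (-0.01 to 0.17) for Psmc4. All 3 other base subunits were negative after TMM scaling and 2 of the 3 under each other scaling. Psmd2, a scaffold that docks ubiquitin shuttles, was at -0.18 (-0.24 to -0.13), the ubiquitin receptor Psmd4 at -0.16 (-0.26 to -0.06) and the scaffold Psmd1 at -0.01. The lid, which holds the deubiquitinase Psmd14, ran from -0.11 for Psmd3 to 0.09 for Psmd7, with a median of 0.03. Among the chaperones that help assemble the base, Psmd9 was at 0.24 (0.05 to 0.44) and Psmd10 at -0.12 (-0.35 to 0.11). The medians were 0.02 for the 20S core and -0.01 for the 19S cap.

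**Figure D2:**
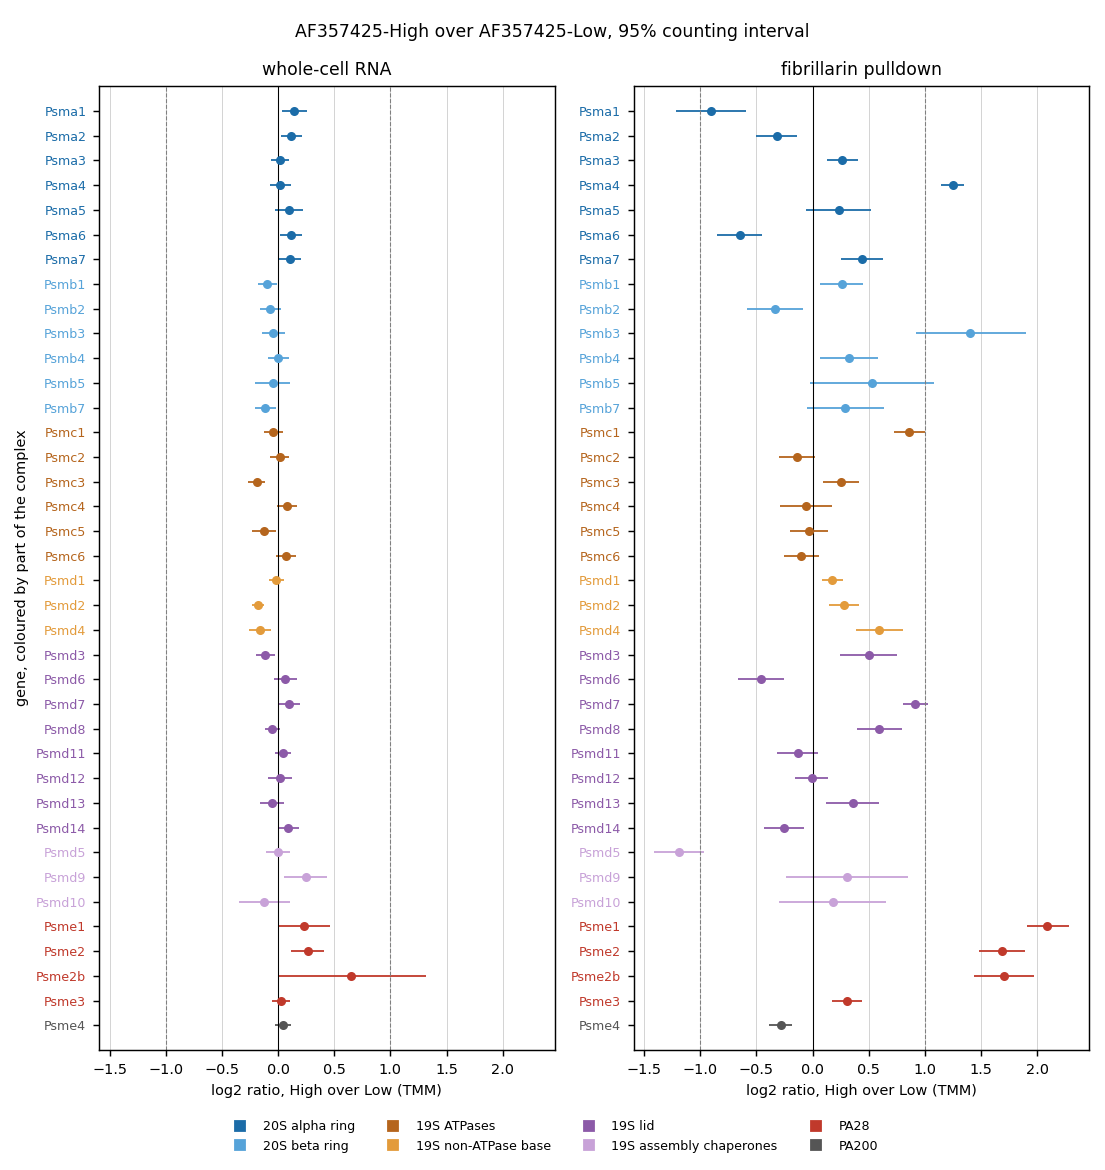
log2 ratio of High over Low for each measured proteasome gene in whole-cell RNA (left) and in the fibrillarin pulldown (right), after TMM scaling; points are the ratios, bars are 95% counting intervals, dashed lines mark 2-fold, and colours mark parts of the complex. Whole-cell ratios lie between -0.19 and 0.65, while pulldown ratios run from -1.19 for Psmd5 to 2.09 for Psme1.

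In the pulldown the ratios spread more widely, among the members as among all genes. The SD across the 33 core and cap genes was 0.548, against 0.821 for all measured genes. Both were above their whole-cell values of 0.103 and 0.333. Of 38 members, 4 lay wholly beyond 2-fold on the higher side in High and none on the lower side, against 3.43% and 2.90% of 10736 genes. These were Psme1, Psme2 and Psme2b of PA28 and Psma4 of the alpha ring. Intervals lay above 0 for 19 members and below 0 for 8, against 31.5% and 32.5% of all genes. The median of the members was 0.26 and that of all genes -0.01. This lean depended on the scaling: 24 of 38 members were positive with TMM, with DESeq2 size factors and without the most abundant genes, but 16 with library totals, under which the shift of the all-gene median was -0.295 and the members' median became -0.03. Psme1, Psme2 and Psme2b were the exception, with all 3 beyond 2-fold under each of the 4 scalings. Psme3, the other PA28 gene, was at 0.31 with TMM and at 0.01 under library totals.

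Psme1 encodes the alpha subunit of PA28 and lies at chr14:55578494-55581527. It had 15.9 CPM in whole-cell RNA of High and 13.0 CPM in Low, and 38.6 CPM in the High pulldown and 11.1 CPM in the Low pulldown. The High pulldown stood above the other libraries, whose intervals reached at most 17.6 CPM. The ratio was 2.09 (1.91 to 2.28) in the pulldown, or 4.26-fold, and 0.23 (-0.00 to 0.46) in whole-cell RNA.

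Psme2, its beta subunit partner, is the neighbouring gene at chr14:55587440-55591101. Its levels were 39.3 and 31.2 CPM in whole-cell RNA of High and Low and 25.8 and 9.84 CPM in the pulldowns. By library totals the Low pulldown was the low library here. Where the pulldowns stand against whole-cell RNA depends on those totals, which mitochondrial ribosomal RNA dominates in the pulldowns. Psme2 differed by 1.69 (1.48 to 1.89) in the pulldown, or 3.22-fold, and by 0.27 (0.12 to 0.41) in whole-cell RNA.

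Psme2b is a short gene of the Psme2 family on another chromosome, at chr11:48945345-48946410. Reads that fit both genes equally may be missing from both, since fragments without a unique alignment were listed apart from the gene counts. It had 55 and 33 reads in whole-cell RNA of High and Low and 416 and 169 reads in the pulldowns, or 2.49, 1.52, 16.1 and 6.07 CPM. Its pulldown level was above its whole-cell level in both states. Its state ratio was 1.70 (1.44 to 1.97) in the pulldown and 0.65 (-0.00 to 1.32) in whole-cell RNA.

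Psme3 encodes PA28 gamma, a nuclear activator that acts without the other PA28 subunits. It stood at 115 and 109 CPM in whole-cell RNA and at 33.5 and 33.2 CPM in the pulldowns. The pulldown levels overlapped within counting error before scaling between libraries. After TMM scaling the ratio was 0.31 (0.17 to 0.44) in the pulldown, with 0.01 under library totals, and 0.02 (-0.06 to 0.11) in whole-cell RNA. PA200, encoded by Psme4, went the other way in the pulldown: 51.2 CPM in High and 76.5 CPM in Low, a ratio of -0.28 (-0.38 to -0.19), beside 0.04 (-0.03 to 0.11) in whole-cell RNA.

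**Figure D3:**
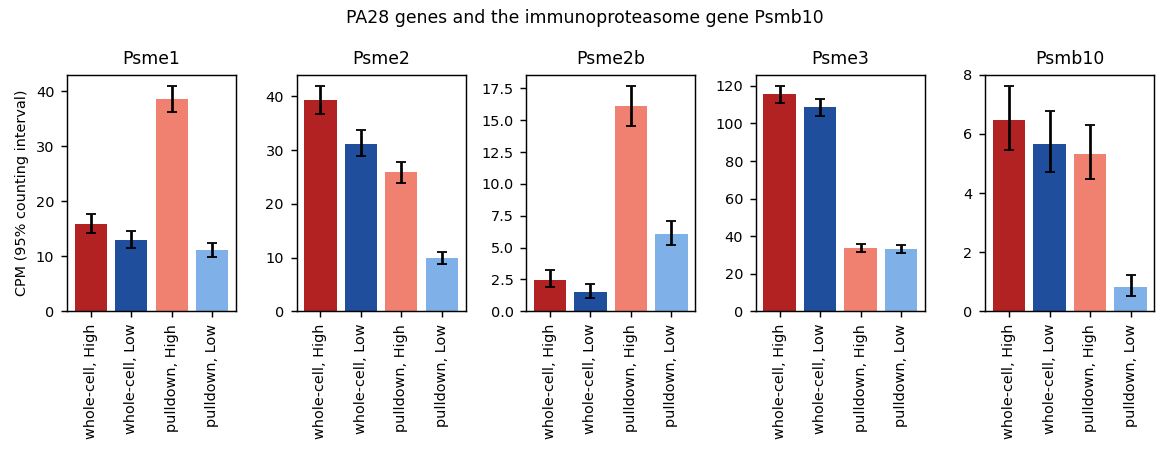
Levels of the 4 PA28 genes and of the immunoproteasome gene Psmb10 in CPM, 1 bar per library with its 95% counting interval; each panel has its own axis from 0. In the panels of Psme1, Psme2, Psme2b and Psmb10 the High pulldown bar stands well above the Low pulldown bar, while the pulldown bars of Psme3 are level.

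The median of PA28 was 1.69, against 0.27 for the 20S core and 0.18 for the 19S cap. Summed over the 4 genes, PA28 differed by 1.21 (1.128 to 1.302), the alpha ring by 0.43 (0.37 to 0.49), the beta ring by 0.22 (0.10 to 0.33) and PA200 by -0.28. The alpha ring sum leaned on Psma4, with 2137 of its 4462 reads in the High pulldown and 1190 of 4373 in the Low. Of the 7 measured alpha ring genes, 3 had intervals above 0 and 3 below. Psme1, Psme2 and Psme2b made up 5.28% of their own plus 20S core reads in whole-cell RNA of High and 4.46% in Low. In the pulldowns they made up 26.9% (25.9% to 27.9%, exact interval) in High and 11.6% (10.8% to 12.4%) in Low. These shares hold no scaling between libraries.

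The immunoproteasome is the form of the core that PA28 made of Psme1 and Psme2 products is best known to work with. Psmb10, its trypsin-like subunit and its only measured gene here, had 143 reads in High and 123 in Low of whole-cell RNA, but 138 in the High pulldown and 23 in the Low pulldown. Its pulldown ratio was 2.99 (2.34 to 3.69), beside 0.13 (-0.23 to 0.49) in whole-cell RNA. Of the 6 measured genes of interferon signalling and MHC class I presentation listed beside it, 4 lay beyond 2-fold upward in the pulldown. Among all measured genes that share was 3.43%. The list was written with earlier results of these data known, so the count is no independent check. The genes beyond 2-fold included the class I transactivator Nlrc5 at 3.40, the transcription factor Stat2 at 1.38 and the class I light chain B2m at 1.22. Irf1, a transcription factor, was at 0.08 (with a whole-cell ratio of 0.10), and its relative Irf9 was at 0.34. None of these 5 genes lay beyond 2-fold in whole-cell RNA, where they ran from -0.16 for B2m to 0.24 for Stat2. The peptide transporter genes Tap1 and Tap2 are listed at 1 and 0 reads in all, but all 33 other coding genes within 300 kb of each also had under 10 reads in every library, so these are given only as listed values.

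The promoters of the PA28 genes that stood apart in the pulldown are shown to compare their sequence (RefSeq, GRCm38.p6, gene strand, from 150 bases before the start site to 30 after it). Capitals mark a match to the core of the interferon-stimulated response element, searched as GAAANNGAA on both strands. The Psme1 stretch is chr14:55578344-55578523 on the plus strand, that of Psme2 is chr14:55591072-55591251 on the minus strand and that of Psme2b is chr11:48946381-48946560 on the minus strand.
Psme1: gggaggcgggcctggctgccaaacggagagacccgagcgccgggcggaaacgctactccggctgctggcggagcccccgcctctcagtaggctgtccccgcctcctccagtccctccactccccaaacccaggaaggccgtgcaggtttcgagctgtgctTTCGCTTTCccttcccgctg
Psme2: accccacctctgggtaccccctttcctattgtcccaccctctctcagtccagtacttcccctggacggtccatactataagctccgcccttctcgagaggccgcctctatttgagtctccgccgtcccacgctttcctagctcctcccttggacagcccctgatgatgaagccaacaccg
Psme2b: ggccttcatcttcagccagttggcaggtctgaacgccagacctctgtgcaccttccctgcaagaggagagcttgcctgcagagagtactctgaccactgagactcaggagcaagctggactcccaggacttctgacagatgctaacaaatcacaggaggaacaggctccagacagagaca
The Psme1 match begins at base 11 counted from the start site as base 1, on the opposite strand, and neither of the other stretches holds these letters. In the full windows of 250 bases before to 50 after the start, the motif was found in 16.2% of 37 promoters of 34 members and in 8.56% of 32851 mouse promoters. Members with a match were Psmb3, Psmb4, Psmc2, Psmd4, Psmd9 and Psme1, of which only Psme1 lay wholly beyond 2-fold in the pulldown. The CCAAT box occurred in 35.1% of member promoters and 37.4% of all. The core of the antioxidant response element, TGACNNNGC, through which the factor Nfe2l1 is known to drive proteasome genes, occurred in 16.2% and 12.4%, at Psmb5, Psmb6, Psmc6, Psmd12, Psmd9 and Psme4.

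Genes beside the PA28 genes did not all share their ratios. Emc9, which overlaps the end of Psme1 by 9 bases, had 12 and 15 reads in the pulldowns, a ratio of 0.08. Rnf31, a ubiquitin ligase gene past Psme2, was at 0.67 in the pulldown and 0.45 in whole-cell RNA, and Dcaf11 on the other side was at -0.06. Psme2b overlaps 9930111J21Rik1 by 261 bases, and that gene had a pulldown ratio of 2.23 from 220 and 62 reads. Gm12185, which lies near Psme2b without overlapping it, had the highest pulldown ratio of these neighbours, 4.70 (3.62 to 6.04) from 138 and 7 reads. Whether counting used the strand is not stated in those sources, so reads of the overlapping genes cannot be assigned with certainty. Over the 29 members that overlap no other RefSeq gene, Psme2 was the only one beyond 2-fold upward. These 29 include the unmeasured Psma8, Psmb6 and Psmb11. The share among those measured was thus near the 3.43% of all measured genes.

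Within the alpha ring the pulldown ratios pulled apart. Psma4 at chr9:54950781-54958034 had 87.7 and 82.7 CPM in whole-cell RNA and 82.6 and 42.8 CPM in the pulldowns. By library totals its High pulldown was level with whole-cell RNA and its Low pulldown was lower. Mitochondrial ribosomal RNA took 63.4% and 59.8% of the pulldown totals, so where the pulldowns stand against whole-cell RNA depends on the totals used. The state ratio of Psma4 was 1.25 (1.14 to 1.35) in the pulldown and 0.02 in whole-cell RNA. Under library totals the pulldown ratio was 0.95 and no longer beyond 2-fold. Psma4 overlaps AY074887 by 174 bases, a gene with 1 and 0 reads in the pulldowns. Psma1 showed the opposite order, with 122 reads in the High pulldown and 301 in the Low, a ratio of -0.90 (-1.22 to -0.59). Psma6 was at -0.65, Psma2 at -0.32, Psma7 at 0.44, Psma3 at 0.27 and Psma5 at 0.23.

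The beta ring was measured with few reads in the pulldowns. Psmb3, a structural subunit, had 108 reads in High and 54 in Low, a ratio of 1.40 (0.92 to 1.90) whose interval crossed the 2-fold line. Psmb5 had 60 and 55 reads, a ratio of 0.53 (-0.03 to 1.08), and Psmb7 had 138 and 149, a ratio of 0.29 (-0.05 to 0.63). Neither catalytic subunit could be told from no difference at this depth. Psmb2 was the lowest of the ring at -0.33 (-0.59 to -0.08).

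In the cap, no member lay wholly beyond 2-fold in the pulldown. Psmd5, a base assembly chaperone, came nearest on the lower side: it had 70.5 and 67.4 CPM in whole-cell RNA and 8.89 and 24.9 CPM in the pulldowns. The High pulldown was the lowest of the 4 libraries, and the ratio was -1.19 (-1.41 to -0.97), or -1.48 under library totals, where it did pass the line. The other chaperones, Psmd9 at 0.30 and Psmd10 at 0.18, had intervals that included 0.

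Psmd7, the inactive partner of the deubiquitinase Psmd14, was highest in the lid at 0.92 (0.80 to 1.03), with 59.8 and 38.9 CPM. Psmd14 itself was at -0.25 (-0.43 to -0.07), and Psmd6 was lowest in the lid at -0.46. The ATPase Psmc1 was at 0.86 (0.72 to 1.00), while the other 5 ATPases lay between -0.14 for Psmc2 and 0.25 for Psmc3. The base subunits were at 0.18 for Psmd1, 0.28 for Psmd2 and 0.59 for Psmd4, each with an interval above 0 after TMM scaling; under library totals Psmd1 and Psmd2 were negative. Core and cap genes, assembly chaperones included, thus spanned 2.59 log2 units in the pulldown, from Psmd5 to Psmb3. In whole-cell RNA they spanned 0.434, from Psmc3 to Psmd9. Subunits of the 20S core alone spanned 2.30 in the pulldown and 0.257 in whole-cell RNA.

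Pulldown and whole-cell RNA were compared within each state by library totals. Of 38 members, 31 were lower in the pulldown beyond 2-fold in both states and 1 was higher, against 59.7% and 1.56% of 12795 genes. Member medians were -2.52 in High and -1.99 in Low, beside -2.13 and -1.74 for all genes. Both totals are dominated by mitochondrial ribosomal RNA in the pulldown: without it 12 members were lower in both states, and the medians were -1.07 and -0.68 beside -0.68 and -0.42 for all genes.

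**Figure D4:**
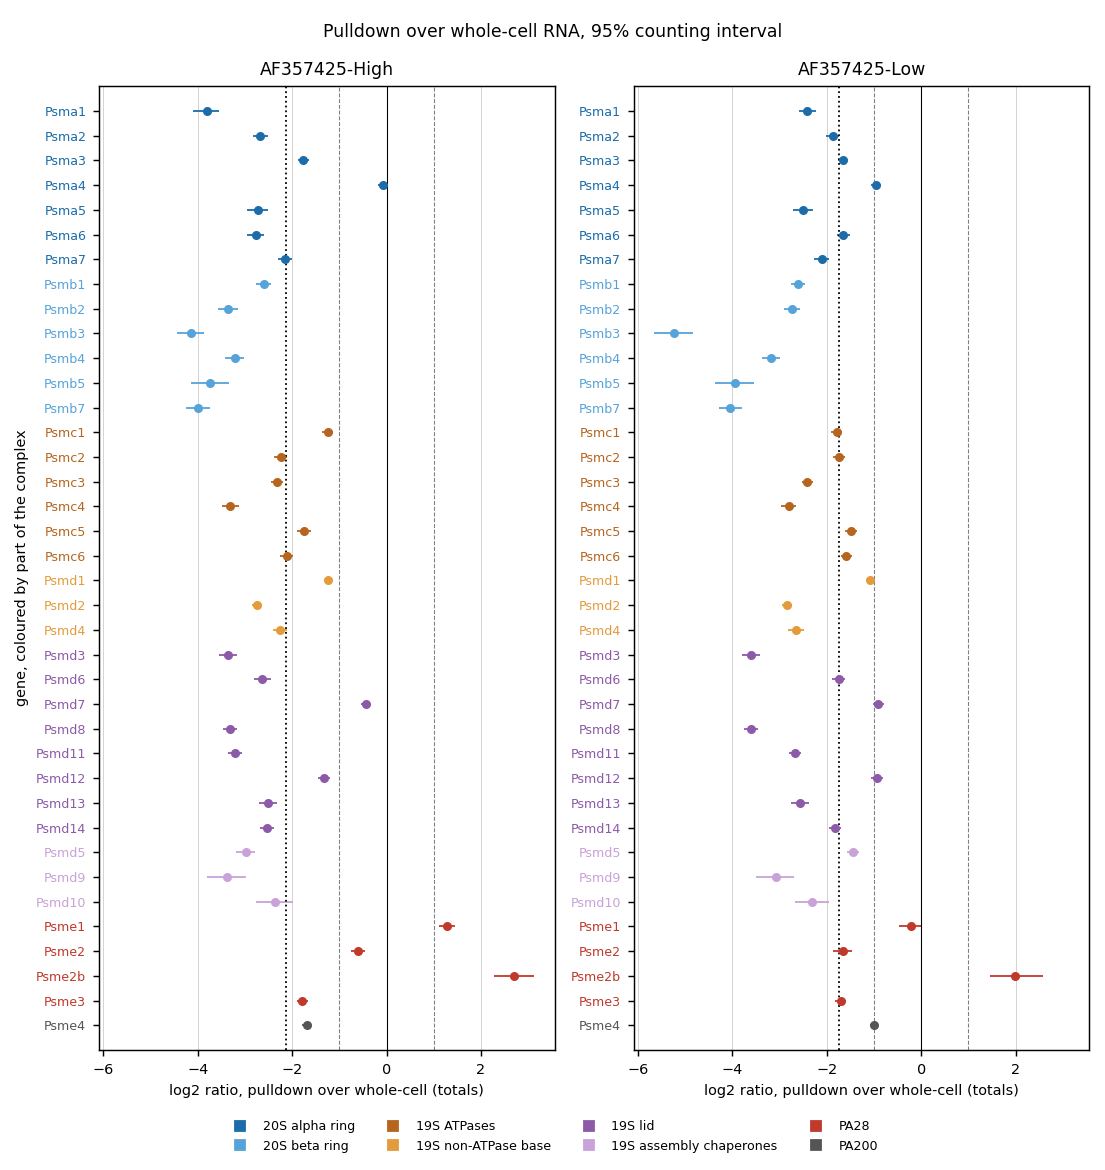
log2 ratio of pulldown over whole-cell RNA by library totals for each measured proteasome gene in High (left) and Low (right), with 95% counting intervals; dotted lines mark the medians of all measured genes (-2.13 and -1.74) and dashed lines mark 2-fold. Psmb3 lies farthest to the left in both states and Psme2b farthest to the right.

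The beta ring was the part least recovered, with medians of -3.54 in High and -3.56 in Low. It ran from -4.15 and -5.23 for Psmb3 to -2.61 and -2.60 for Psmb1, and Psmb7 was at -4.00 and -4.04. The alpha ring had medians of -2.68 and -1.88, from -3.81 for Psma1 in High and -2.50 for Psma5 in Low to -0.09 and -0.95 for Psma4. The gap between the rings, 0.867 in High and 1.68 in Low, holds for any choice of totals. The ATPases had medians of -2.18 and -1.77, with Psmc4 lowest in both states, Psmc1 highest in High and Psmc5 highest in Low.

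The other base subunits ran from -2.74 and -2.84 for Psmd2 to -1.25 and -1.08 for Psmd1. The lid ran from -3.35 and -3.61 for Psmd3 to -0.44 and -0.91 for Psmd7. Among the chaperones Psmd9 was lowest, at -3.38 and -3.08, and the highest were Psmd10 at -2.37 in High and Psmd5 at -1.44 in Low. Psmd12 of the lid, at -1.32 and -0.93, and Psme4, at -1.69 and -1.01, were below 2-fold in High only. The member above whole-cell RNA in both states was Psme2b, at 2.69 (2.28 to 3.12) in High and 1.997 (1.45 to 2.58) in Low. Psme1 was at 1.28 (1.10 to 1.46) in High and -0.22 (-0.46 to 0.02) in Low, Psme2 at -0.60 and -1.66, and Psme3 at -1.78 and -1.71.

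The change of the pulldown ratio between the states is the pulldown log2 ratio less the whole-cell log2 ratio. It lay beyond 2-fold upward for 3 members and downward for none, against 2.65% and 1.66% of 11356 genes. The members were Psme1 at 1.86 (1.57 to 2.15), Psme2 at 1.42 (1.17 to 1.67) and Psma4 at 1.23 (1.09 to 1.36). The intervals of the next members crossed the line: Psmb3 at 1.44 (0.96 to 1.92), Psme2b at 1.05 (0.38 to 1.73), Psma1 at -1.05 (-1.37 to -0.72) and Psmd5 at -1.19 (-1.43 to -0.95). Under library totals Psme1 was the only member beyond the line upward.

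The other extremes of the parts were Psmb2 at -0.27 in the beta ring and, among the ATPases, Psmc6 at -0.17 and Psmc1 at 0.90. In the lid they were Psmd6 at -0.53 and Psmd7 at 0.82. Base subunits lay between 0.19 for Psmd1 and 0.75 for Psmd4, and the other chaperones reached 0.30 for Psmd10. Psme3 was at 0.28 and Psme4 at -0.33.

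Members with short genes tended to have the higher pulldown ratios. Across the 38 members, the log10 RefSeq gene span (exons and introns) and the pulldown ratio had a Spearman rho of -0.58 and a Pearson r of -0.57. The 19 members with spans up to the median of 12362.5 bases had a median ratio of 0.44, with 15 positive, and the 19 longer ones had a median of -0.01, with 9 positive. Without PA28 and PA200 the rho was -0.43 over 33 genes, and over 10301 measured genes it was -0.14. The points share the same pair of libraries, genes are not independent replicates, and spans are not transcript lengths.

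**Figure D5:**
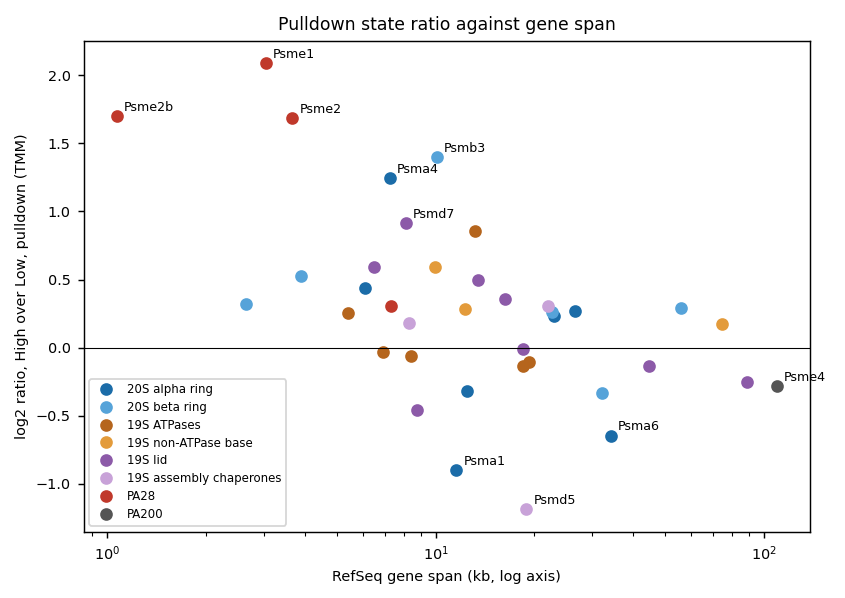
Pulldown log2 ratio of High over Low (TMM) against RefSeq gene span in kilobases (log axis) for the 38 measured members, coloured by part of the complex, with members at the extremes named. The 3 members at the upper left are Psme2b, Psme1 and Psme2, and the long Psme4 lies at the right at -0.28.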

How the data were processed

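Per the labels, the 4 libraries (whole-cell or fibrillarin pulldown, AF357425-High or AF357425-Low, 1 each) were sequenced on the DNBseq platform. The authors deposited raw read counts per Ensembl gene. Per the submitters' processing notes, the tools were cutadapt 2.4, STAR 2.6.0c, HTSeq 0.9.1 and StringTie 1.3.4 with GRCm38; the sources used here give neither annotation nor strand setting. Summary lines of HTSeq were left out of totals. Ambiguous reads, which are lost from overlapping genes, were 1.05% and 1.09% of whole-cell fragments and 9.38% and 8.54% of pulldown fragments. Fragments without a unique alignment were 11.3% and 11.2% in the whole-cell libraries of High and Low and 18.3% and 17.8% in the pulldowns.

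Symbols matched 55450 IDs, and all 41 members were found in RefSeq (GRCm38.p6). A gene counted as measured from a mean of 1 CPM across the compared libraries. States were compared with TMM factors (edgeR 4.0.16, R 4.3.3), pulldown with whole-cell RNA by library totals, and the change where every library had 10 or more reads. Intervals are exact (Clopper-Pearson, 95%) or, for the change, normal. A call needed the whole interval beyond 2-fold. The limit that 0 reads allows is 3 reads, or 0.108 to 0.138 CPM. The computation was tested on simulated counts. Alternatives were other scalings (DESeq2 1.42.0), filters, a 1.5-fold line and members without overlaps.

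Named with values were all PA28 and PA200 genes, catalytic beta subunits, members called, the extremes of each part and list, and members under 10 reads; some listed genes are not reported here. Members, lists and tests were chosen with earlier results of these data known. The window around Psmb6 and the median of PA28 without Psme2b were added after seeing the data.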

Additional observations from a re-analysis of the deposited data

Results flagged for a closer look

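For 8 of 38 members, the interval of the state ratio lay on opposite sides of 0 between whole-cell and pulldown libraries, as it did for 13.0% of 10366 genes measured in both. Each has 1 library per group, and the difference was not tested. Psma1, Psma2 and Psma6 of the alpha ring were higher in High in whole-cell RNA and lower in the High pulldown. Their pulldown ratio less their whole-cell ratio was -1.05, -0.44 and -0.76 on the log2 scale. The other 5 showed the reverse order, lower in High for whole-cell RNA, higher in High for the pulldown: the beta subunit Psmb1 by 0.357, the ATPase Psmc3 by 0.440, the base subunits Psmd2 by 0.461 and Psmd4 by 0.753, and the lid subunit Psmd3 by 0.612. The 3 alpha ring genes had opposite intervals under all 4 scalings. Relative to TMM, each other scaling moved all whole-cell ratios up and all pulldown ratios down. These 3 genes could therefore only stay opposite, and only the other 5 could be lost. None of the other 5 had opposite intervals under library totals, where the pulldown ratios of Psmb1, Psmc3 and Psmd2 were -0.04, -0.04 and -0.01. There the pulldown interval of Psmd3 and the whole-cell intervals of Psmb1, Psmd3 and Psmd4 included 0. Psmb1 was also lost with DESeq2 size factors and without the 20 most abundant genes, and Psmd3 in the latter.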

How the results depend on the processing

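Of 88 values of the main results under alternatives, 65 stayed within their limits and 23 moved. In the pulldown, library totals gave 1 member lower beyond 2-fold (Psmd5), a member median of -0.032 and a PA28 median of 1.40, totals without the 20 most abundant genes also gave 1 member lower, and a 1.5-fold line gave 7 higher and 2 lower. Members without overlapping genes gave 1 higher and PA28 medians of 0.997 in the pulldown and 0.146 in whole-cell RNA, and, for pulldown over whole-cell RNA, 0 higher and a Low median of -2.41. Members lower in the pulldown in both states were 10 with TMM over the 4 libraries (medians -0.73 and -0.57), 12 without mitochondrial ribosomal RNA (-1.07 and -0.68) and 11 without the 20 most abundant genes (-0.92 and -0.63). For the change, library totals gave 1 higher, 2 lower and a median of -0.068. In whole-cell RNA, intervals above and below 0 went from 6 and 7 members to 17 and 2 under library totals, 12 and 4 with DESeq2 size factors and 15 and 3 without the 20 most abundant genes. In the pulldown they went from 19 and 8 to 9 and 15 under library totals. The causes of these moves were not tested. No paired analysis was possible because each group has 1 library. Depth limits members with few reads, down to 33 for Psme2b in whole-cell RNA and 54 for Psmb3 in a pulldown.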

Other observations

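Genes that serve the proteasome without being subunits ran from -0.96 to 0.79 on the log2 scale in the pulldown. Of 33 such genes in 5 lists, 27 were measured in the pulldown; none lay beyond 2-fold, against 3.43% of all genes upward and 2.90% downward. An interval above 0 was seen for 8 and below 0 for 8, against 31.5% and 32.5% of all genes, and the median was 0.02. In whole-cell RNA 30 were measured, none lay beyond 2-fold, and the median was 0.02.

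Among the core assembly chaperones, Pomp was highest in the pulldown at 0.51 and Psmg2 lowest at -0.67, while Psmg1 is listed at 0 in all libraries, and every other coding gene within 300 kb of it had under 10 reads in each library. Among cofactors, the deubiquitinase Uchl5 was highest at 0.79 (0.62 to 0.96) and Akirin2, which is known to bring proteasomes into the nucleus, was lowest at -0.96 (-1.22 to -0.70). By library totals, Uchl5 alone of the 5 lists had a higher level in the pulldown than in whole-cell RNA of both states. Its log2 ratios were 0.63 in High and 0.38 in Low. Of the shuttle factors, which carry ubiquitinated proteins to the cap, Ubqln4 was highest at 0.69 and Ubqln2 lowest at -0.50.

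The polyubiquitin gene Ubb, with 6537 and 7607 reads in whole-cell RNA of High and Low, was the lowest of the ubiquitin and p97 list there at -0.31. In the pulldown that list ran from -0.07 for Vcp to 0.57 for Rps27a. Nfe2l1, the factor known to raise proteasome genes when activity is short, had a whole-cell ratio of -0.22 and a pulldown ratio of 0.10. Ngly1, which processes that factor, was at 0.00 and -0.23.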
